A study of Homo sapiens with 18 samples.

Results

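Differentiation of H1 human embryonic stem cells into embryoid bodies was compared between cells carrying a control shRNA and untransduced cells, on 12 of the 18 Human Gene 1.0 ST arrays of the study. The arrays were taken by sample title and formed 4 groups of 3. The groups were embryoid bodies of control shRNA cells, pluripotent control shRNA cells, embryoid bodies of untransduced cells and pluripotent untransduced cells. Embryoid bodies are aggregates of stem cells left to differentiate, here for 6 days in AggreWell plates and APEL medium, whereas the pluripotent cells were kept without feeders on Matrigel in mTeSR1. H1 is an established line, and all 4 groups come from it. The control shRNA was delivered with a lentivirus, and the labels name neither its sequence nor any selection of the cells that received it. The other 6 arrays, from cells with an shRNA against KBTBD8, are not part of the comparison. The submitters describe the 3 arrays of a group as independent samples, and nothing says whether they came from separate cultures, so p-values measure the spread between arrays. The effect of transduction and any other difference between the transduced and untransduced cultures, or between their arrays, cannot be told apart.

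When stem cells leave pluripotency without added signals, early ectoderm often forms first. Within it, low BMP and WNT signalling favours anterior neural plate, the origin of the forebrain and the eyes. Intermediate signals at the edge of the plate induce the neural plate border and the neural crest, a migratory population that leaves the dorsal neural tube and gives rise to peripheral neurons, glia, pigment cells and facial skeleton. Cells that keep E-cadherin and receive more BMP become surface ectoderm.

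The quantity described is the change with differentiation in control shRNA cells minus the change in untransduced cells, on the log2 scale, called here the difference of differentiation. A positive value means that a gene rose more, or fell less, with the control shRNA. Values are deposited log2 intensities. After ± stands 1 standard deviation beside a group mean and the standard error beside a log2 difference. A gene is called higher or lower at a limma adjusted p under 0.05, taken over the 14016 genes tested. Intensities under about 5.26 to 5.54, the 40th percentile of the arrays, lie at the dim end of the scale.

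Each of the 12 arrays correlated best with its own group. The lowest correlation within a group was 0.982 and the highest with another group was 0.977. The median of all probe sets was 5.97 to 6.08 on the control shRNA arrays and 5.85 to 5.95 on the untransduced ones, a shift that the difference of differentiation subtracts where both states share it. KBTBD8 itself, the gene the wider study concerns, had 4.43, 4.79 and 5.04 in control shRNA embryoid bodies and 6.39, 7.09 and 7.03 in control shRNA pluripotent cells, against 4.54, 5.06 and 4.07 in untransduced embryoid bodies and 6.50, 6.43 and 6.03 in untransduced pluripotent cells. It was lower in embryoid bodies than in pluripotent cells on every array of both settings.

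The difference of differentiation was called in 2292 genes, or 16.4% of those tested. Of these, 1140 were higher with the control shRNA (8.13%) and 1152 lower (8.22%), and 508 differed by at least 1 on the log2 scale, 316 higher and 192 lower. The median over all genes tested was -0.0012. Differentiation changed 6731 genes in control shRNA cells, 3224 higher in embryoid bodies (23.0%) and 3507 lower (25.0%). In untransduced cells it changed 7308 genes, 3626 higher (25.9%) and 3682 lower (26.3%).

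Among the 1140 genes with a positive difference, 259 rose in control shRNA cells alone, 149 rose in both settings, 316 fell in untransduced cells alone, 294 fell in both, and 116 rose with the control shRNA and fell without it. Another 6 passed in neither setting. Among the 1152 with a negative difference, 290 fell in control shRNA cells alone, 123 fell in both, 382 rose in untransduced cells alone, 275 rose in both, and 75 fell with the control shRNA and rose without it. The remaining 7 passed in neither.

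The difference can also be read as the gap between the 2 settings in embryoid bodies minus the gap already present in pluripotent cells. The gap in embryoid bodies was the larger in 918 of the 1140 positive and 806 of the 1152 negative genes. Control shRNA embryoid bodies differed from untransduced ones in 6200 genes, 3390 higher (24.2%) and 2810 lower (20.0%). Pluripotent cells differed in 3942 genes, 2305 higher with the control shRNA (16.4%) and 1637 lower (11.7%). The split of these gaps depended on scaling. With quantile normalization it was 2639 higher and 3290 lower in embryoid bodies and 1931 and 2098 in pluripotent cells. With each array centred on its median it was 2964 and 3228 in embryoid bodies and 1659 and 2205 in pluripotent cells.

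Fitting all 18 arrays together left 411 positive and 341 negative differences. The arrays numbered 2 of both KBTBD8 shRNA groups correlated best with groups of the other state, and without those 2 arrays the counts were 1166 and 1229. In the fit of all 18, the neural crest list had 7 higher genes, the epithelial list 10 and the BMP list 2, and the forebrain and eye list had 1 lower gene. All counts below come from the 12 arrays. In bulk RNA, fewer cells of a type and less RNA per cell cannot be told apart. A gene that stands in several lists is counted in each. The lists and markers were chosen with earlier results of these data known. Their counts therefore describe the lists and are no independent test of a lineage.

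Neural crest genes were mostly higher with the control shRNA. SNAI2, a zinc finger factor that drives crest cells out of the neural tube, had 11.28, 11.28 and 11.12 in control shRNA embryoid bodies and 6.68, 6.87 and 6.91 in control shRNA pluripotent cells, against 7.38, 7.21 and 7.15 in untransduced embryoid bodies and 6.71, 6.39 and 6.61 in untransduced pluripotent cells. PAX3, a paired box factor of the neural plate border, had 9.41, 9.44 and 9.37 in control shRNA embryoid bodies and 4.74, 4.70 and 5.16 in control shRNA pluripotent cells, against 4.99, 4.76 and 4.83 in untransduced embryoid bodies and 4.45, 4.47 and 4.50 in untransduced pluripotent cells. For both genes the control shRNA embryoid bodies stood far above the 9 other arrays, and the untransduced embryoid bodies lay near the pluripotent cells. SNAI2 rose by 4.41 ± 0.10 with the control shRNA and by 0.68 ± 0.10 without it, a difference of 3.73 ± 0.15 (adjusted p 2.01e-09). PAX3 rose by 4.54 ± 0.11 and by 0.39 ± 0.11, a difference of 4.15 ± 0.16 (adjusted p 1.97e-09).

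FOXD3, a forkhead factor of both pluripotent cells and early crest, moved in opposite directions in the 2 settings. It had 6.65, 6.67 and 6.41 in control shRNA embryoid bodies and 5.76, 5.63 and 5.49 in control shRNA pluripotent cells, against 4.86, 4.55 and 4.17 in untransduced embryoid bodies and 5.81, 5.56 and 5.72 in untransduced pluripotent cells. The pluripotent groups overlapped, and the embryoid bodies lay above them with the control shRNA and below them without it. FOXD3 rose by 0.95 ± 0.14 with the control shRNA and fell by 1.17 ± 0.14 without it, a difference of 2.12 ± 0.20 (adjusted p 7.03e-06).

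**Figure D1:**
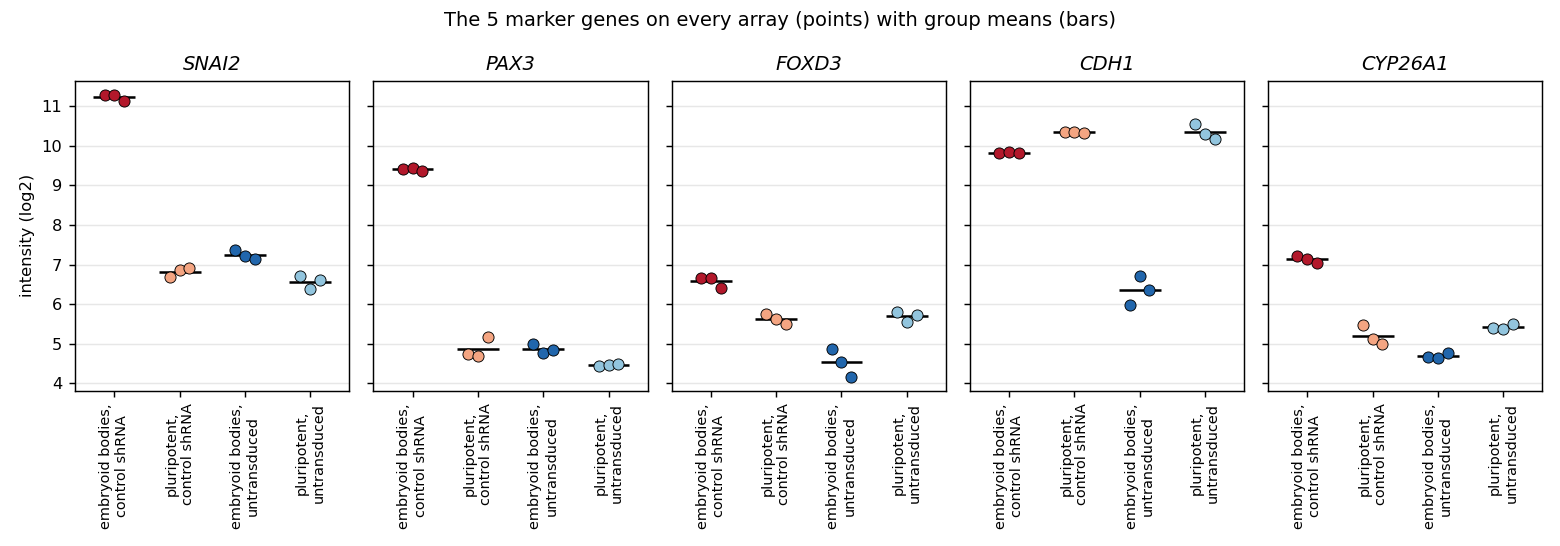
Log2 intensity (vertical axis) of SNAI2, PAX3, FOXD3, CDH1 and CYP26A1 on each of the 12 arrays (points) with the group mean (bar); in each panel the 4 groups run from control shRNA embryoid bodies on the left to untransduced pluripotent cells on the right. Control shRNA embryoid bodies lie above untransduced embryoid bodies in all 5 panels, while the pluripotent groups lie close together.

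TFAP2B, an AP-2 factor of the border and crest, had the largest positive difference of all genes. It had 10.89, 10.76 and 10.72 in control shRNA embryoid bodies and 5.08, 4.82 and 5.37 in control shRNA pluripotent cells, against 5.83, 5.72 and 5.99 in untransduced embryoid bodies and 4.41, 4.95 and 4.88 in untransduced pluripotent cells. It rose in both settings, by 5.70 with the control shRNA and by 1.10 without it (difference 4.60 ± 0.21, adjusted p 1.58e-08). Its relative TFAP2A rose by 4.45 and by 1.56 (2.89 ± 0.24, adjusted p 2.03e-06). ETS1, which gives cranial crest its migratory program in chick and frog, had 9.31, 9.14 and 9.12 in control shRNA embryoid bodies and 7.93, 7.96 and 8.17 in control shRNA pluripotent cells, against 5.23, 4.96 and 5.18 in untransduced embryoid bodies and 8.10, 7.85 and 7.81 in untransduced pluripotent cells. Like FOXD3 it lay above the pluripotent cells in one setting and below them in the other, with a rise of 1.17 with the control shRNA and a fall of 2.80 without it (3.97 ± 0.15, adjusted p 1.97e-09).

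Of the 24 neural crest genes listed, 22 were tested, 15 were higher, 1 was lower and 6 did not pass, against 8.13% and 8.22% of all genes. The median difference over the list was 1.14. All 22 rose with differentiation in control shRNA cells, whereas 13 rose and 3 fell in untransduced cells. PAX3 was above the filter in 1 group alone, so it was tested only because of the group where it was high. MSX2, a BMP target at the border, had a difference of 2.32 ± 0.22. SOX10, a factor of crest progenitors and glia picked after its values were seen, had 8.13, 8.40 and 8.21 in control shRNA embryoid bodies against 6.06, 6.06 and 5.95 in untransduced embryoid bodies, with a difference of 2.0 ± 0.13. The exception was SOX5, also picked after its values were seen, which rose in both settings and more without the shRNA (-0.60).

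**Figure D2:**
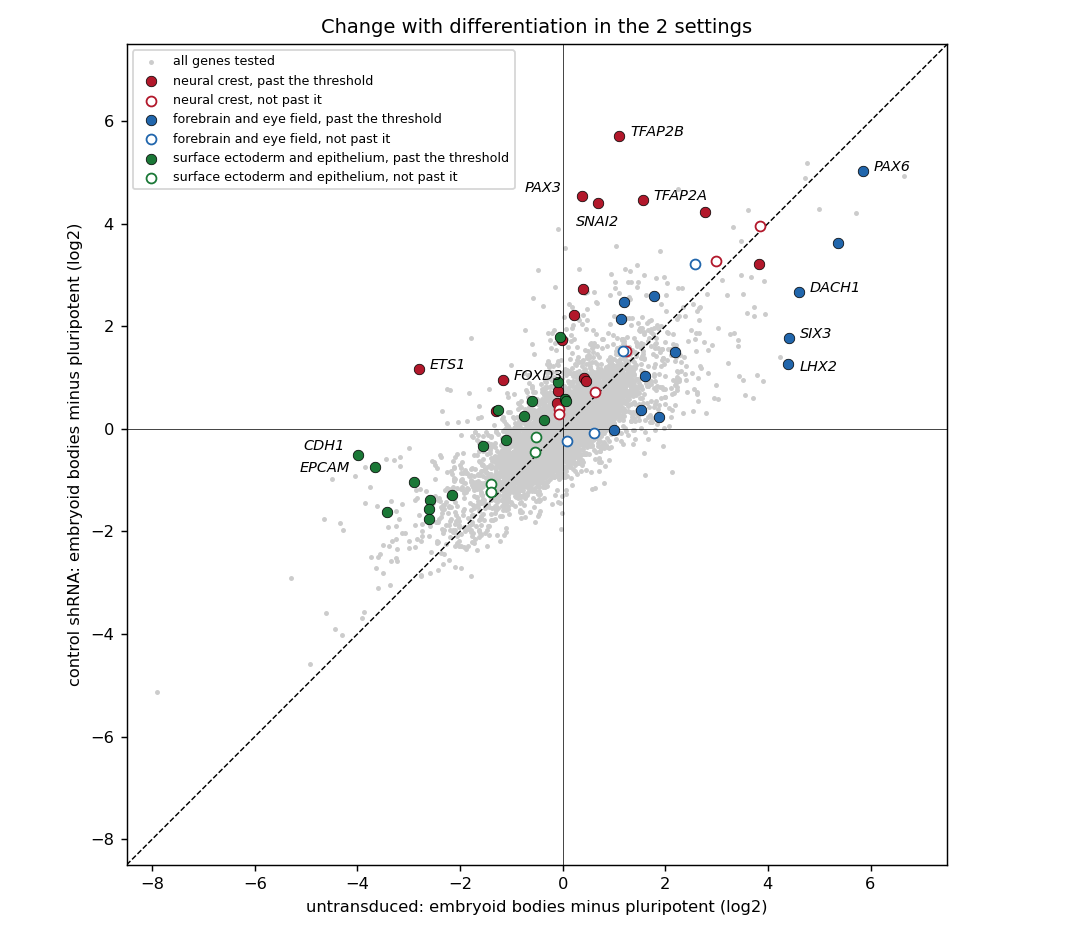
Change with differentiation (log2, embryoid bodies minus pluripotent cells) in control shRNA cells on the vertical axis and in untransduced cells on the horizontal axis, for all 14016 genes tested (grey) and 3 lists (colours; filled points passed the threshold for the difference); the dashed line marks equal change. Crest genes other than SOX5 lie above the line, most forebrain and eye genes below it, and CDH1 and EPCAM far left with a small change on the vertical axis.

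Genes of the dorsal neural tube, from which the crest emerges, were higher in 8 of 12 tested, against 8.13% of all genes. The other 4 did not pass (median 0.68). RSPO3, a secreted WNT enhancer, rose by 2.26 with the control shRNA and did not pass without it (0.22), a difference of 2.05 ± 0.19. PAX7, the paralog of PAX3, had a difference of 1.73 ± 0.22, OLIG3, a dorsal progenitor factor, 1.37 ± 0.22, the roof plate ligand WNT1 0.95 ± 0.18, and ZIC1, a border zinc finger factor, 0.95 ± 0.21. RSPO3 and ZIC1 were above the filter in control shRNA embryoid bodies alone. With a filter at the 60th percentile, 3 genes of the list were higher.

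Targets and regulators of WNT signalling followed the same side. DKK1, a secreted WNT inhibitor that WNT itself induces, had 8.14, 7.90 and 7.91 in control shRNA embryoid bodies and 4.47, 4.61 and 4.31 in control shRNA pluripotent cells, against 3.84, 3.46 and 3.13 in untransduced embryoid bodies and 3.26, 3.61 and 3.44 in untransduced pluripotent cells. It was thus bright in 1 group, and its difference was 3.48 ± 0.22 (adjusted p 1.20e-07). AXIN2, the best known feedback target of the pathway, had 8.74, 8.70 and 8.79 in control shRNA embryoid bodies against 7.04, 6.73 and 7.07 in untransduced embryoid bodies, with a difference of 1.31 ± 0.13. APCDD1, another inhibitor induced by WNT, rose with the control shRNA and fell without it (1.85 ± 0.18), and TNFRSF19 rose with it and did not pass without it (1.66 ± 0.15). In all, 7 of 13 WNT genes were higher and 1 was lower, against 8.13% and 8.22% of all genes (median 0.83). The count of lower genes is near its share. The lower gene was LGR5, an R-spondin receptor, with 5.04, 5.14 and 5.06 in control shRNA embryoid bodies against 7.16, 6.90 and 7.30 in untransduced ones (-2.03 ± 0.16). Of the 13, 5 were above the filter in 1 group alone, DKK1, LGR5 and RSPO3 among them, and without replicate 2 of the control shRNA embryoid bodies 2 genes were lower.

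Genes of BMP signalling, both targets and regulators, were higher in 11 of 17 tested, against 8.13% of all genes. The other 6 did not pass (median 0.72). Besides MSX2, the largest were BMPER, a secreted BMP modulator (1.97 ± 0.18), GATA3, a factor of surface ectoderm and trophoblast (1.11 ± 0.18), the BMP antagonist GREM1 (0.98 ± 0.18), and the inhibitors of differentiation ID4 (0.95 ± 0.22) and ID1 (0.87 ± 0.19). Their relatives ID3 (0.36) and ID2 (0.29) did not pass. For ID2 the gap was -0.82 in embryoid bodies and -1.11 in pluripotent cells, lower with the control shRNA. BMP4 was above the filter in 1 group alone, and with the filter at the 60th percentile 7 genes of the list were higher.

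Forebrain and eye field genes went the other way. LHX2, a LIM factor of the eye field and cortex, had 6.56, 6.92 and 6.72 in control shRNA embryoid bodies and 5.38, 5.74 and 5.28 in control shRNA pluripotent cells, against 9.83, 9.65 and 9.61 in untransduced embryoid bodies and 5.04, 5.15 and 5.71 in untransduced pluripotent cells. SIX3, which represses WNT genes in the anterior plate, had 7.14, 7.24 and 7.16 in control shRNA embryoid bodies and 5.50, 5.36 and 5.40 in control shRNA pluripotent cells, against 9.81, 10.11 and 9.79 in untransduced embryoid bodies and 5.26, 5.73 and 5.50 in untransduced pluripotent cells. Both genes rose in both settings, and the embryoid bodies of the 2 settings did not overlap. LHX2 rose by 1.27 ± 0.16 with the control shRNA and by 4.40 ± 0.16 without it, a difference of -3.13 ± 0.23 (adjusted p 6.67e-07), and for SIX3 the rises were 1.76 and 4.41 (-2.65 ± 0.17, adjusted p 1.20e-07).

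Of the 17 forebrain and eye genes tested, 10 were lower and 3 higher, against 8.22% and 8.13% of all genes (median -0.69). DACH1, a nuclear factor of the eye, rose by 2.66 with the control shRNA and by 4.60 without it (-1.94 ± 0.15), and LIX1 by 3.63 and 5.36 (-1.74 ± 0.24). RAX, the eye field homeobox gene, did not pass with the control shRNA (0.22) and rose by 1.89 without it (-1.67 ± 0.19). The higher genes were FEZF1 (0.81), LHX5 (0.99), both anterior forebrain factors, and OTX2, a head factor that pluripotent cells also use (1.29 ± 0.13). FEZF1 was lower with the control shRNA in both states, by -1.18 in embryoid bodies and by -1.99 in pluripotent cells. Its mean in embryoid bodies was 8.61 with the control shRNA and 9.80 without it. For OTX2 the embryoid bodies overlapped, at 10.90, 10.91 and 10.86 with the control shRNA and 10.76, 10.78 and 10.90 without it, and the gap lay in pluripotent cells, at 8.39, 8.35 and 8.49 with it and 9.77, 9.67 and 9.45 without it.

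In the neural plate and progenitor list 5 of 16 genes were lower and 1 was higher (median -0.24). Over all genes the shares were 8.22% and 8.13%, and the count of higher genes is near its share. PAX6, the neuroectoderm and eye factor, rose strongly in both settings, by 5.02 with the control shRNA and by 5.85 without it (-0.83 ± 0.18, adjusted p 0.00558). SOX2, shared by pluripotent and neural cells, had 10.14, 10.13 and 10.29 in control shRNA embryoid bodies and 10.03, 10.25 and 10.28 in control shRNA pluripotent cells, against 11.21, 11.20 and 11.19 in untransduced embryoid bodies and 10.48, 10.32 and 10.36 in untransduced pluripotent cells. It did not pass with the control shRNA and rose without it (0.81 ± 0.09). FABP7 of radial glia (-1.09 ± 0.24), N-cadherin CDH2 (-0.78 ± 0.15) and nestin (NES, -0.76 ± 0.11) were lower too. ZIC2, a factor of the dorsal forebrain, was the higher gene (0.69). Its gap lay in pluripotent cells, with means of 8.84 with the control shRNA and 9.47 without it, against 9.26 and 9.20 in embryoid bodies. SOX21 did not pass (-0.70, adjusted p 0.0876).

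Genes of the midbrain and hindbrain split evenly, with 4 higher and 4 lower of 14 tested, against 8.13% and 8.22% of all genes (median 0.054). MEIS1, a HOX cofactor, rose by 1.41 with the control shRNA and by 4.23 without it (-2.82 ± 0.14, adjusted p 1.69e-08), and its relative MEIS2 by 2.37 and 3.72 (-1.35 ± 0.15). IRX2 (1.25 ± 0.15) and IRX1 (0.93 ± 0.17), Iroquois factors of the posterior plate, were higher. Of 39 HOX genes listed, 7 were tested and 20 were too dim. The 7 lay between -0.12 and 0.24 in the difference and did not pass, and at an unadjusted p under 0.05 the limma fit called 0 of them. HOX genes did not pass with differentiation in either setting.

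FGF and ERK genes were lower in 8 of 18 and higher in 4, against 8.22% and 8.13% of all genes (median -0.40). FGF9, a ligand, had 5.29, 5.38 and 5.40 in control shRNA embryoid bodies and 4.68, 4.48 and 4.11 in control shRNA pluripotent cells, against 8.49, 8.40 and 8.42 in untransduced embryoid bodies and 4.30, 4.41 and 4.90 in untransduced pluripotent cells. It was bright in untransduced embryoid bodies alone, with a difference of -2.96 ± 0.21 (adjusted p 4.97e-07). The feedback inhibitor IL17RD and the ETS factor ETV5, both standard readouts of FGF signalling, fell with the control shRNA and rose without it (-1.88 ± 0.12 and -1.79 ± 0.19). SPRY2, another feedback inhibitor, did not pass with the control shRNA and rose by 1.60 without it (-1.66 ± 0.13). PHLDA1, which ERK induces, fell by 0.91 with the control shRNA and by 4.06 without it, and is the largest positive member (3.14 ± 0.17, adjusted p 4.33e-08). EGR1, an immediate early gene, was positive at 2.16 ± 0.42. Its values lay between 7.62 and 7.81 on the control shRNA pluripotent arrays, against 8.54 and 9.98 on the untransduced ones, and its embryoid bodies overlapped.

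**Figure D3:**
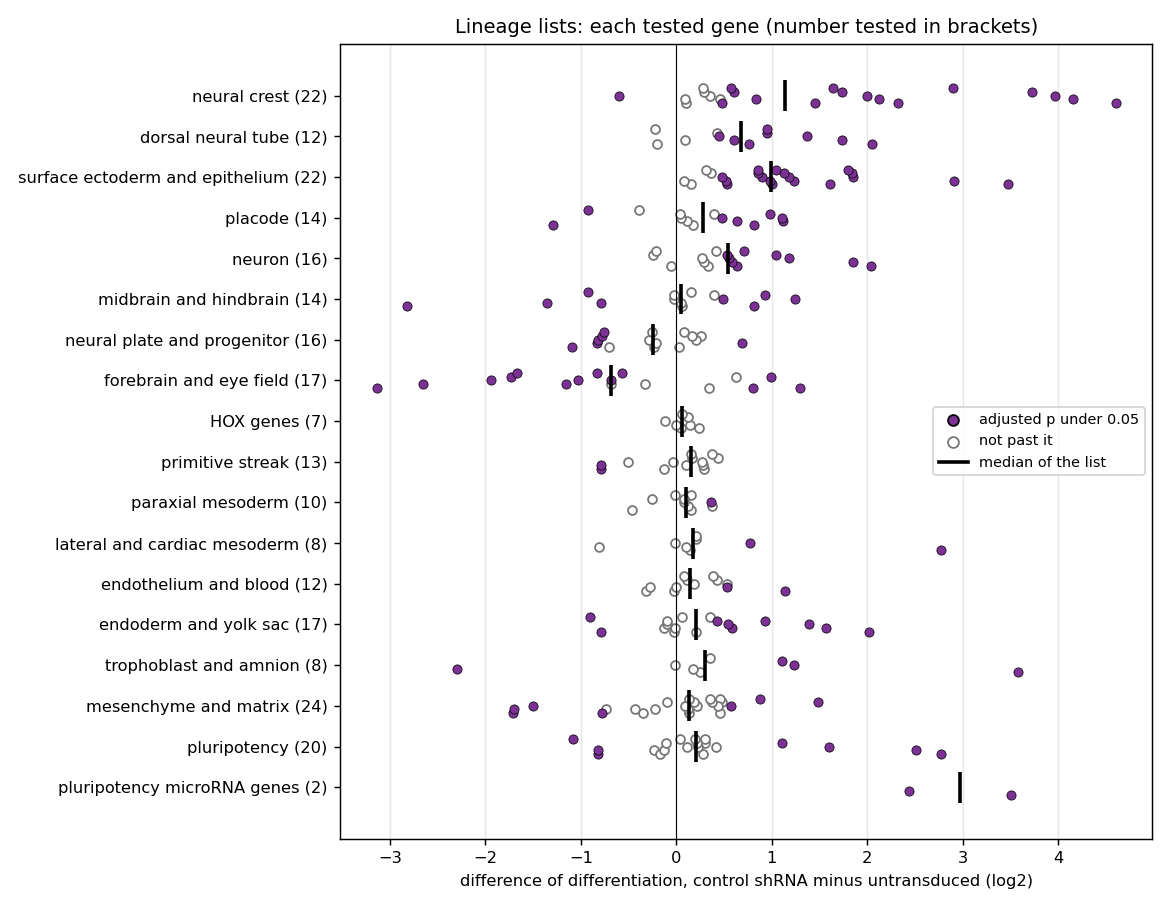
Difference of differentiation (log2, control shRNA minus untransduced, horizontal axis) of every tested gene in 18 lists of lineage and state genes (rows, with the number tested); filled points passed an adjusted p under 0.05, and the bar is the list's median. Neural crest, dorsal neural tube and epithelium lie mostly right of 0, forebrain and eye field mostly left, and the HOX genes close to 0.

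Epithelial genes fell less with the control shRNA. CDH1 encodes E-cadherin, the adhesion protein of epithelia and pluripotent colonies. It had 9.83, 9.84 and 9.81 in control shRNA embryoid bodies and 10.35, 10.34 and 10.32 in control shRNA pluripotent cells, against 5.99, 6.70 and 6.35 in untransduced embryoid bodies and 10.55, 10.29 and 10.18 in untransduced pluripotent cells. The pluripotent groups overlapped, and the untransduced embryoid bodies alone had lost most of the signal. CDH1 fell by 0.51 ± 0.14 with the control shRNA and by 3.99 ± 0.14 without it, a difference of 3.48 ± 0.20 (adjusted p 6.78e-08).

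EPCAM, an epithelial surface protein, had 10.35, 9.88 and 10.07 in control shRNA embryoid bodies and 10.65, 10.88 and 10.97 in control shRNA pluripotent cells, against 6.33, 7.72 and 7.99 in untransduced embryoid bodies and 11.10, 10.95 and 10.94 in untransduced pluripotent cells. The untransduced embryoid bodies were again the low group, with a wider spread (difference 2.91 ± 0.42, adjusted p 2.92e-04). The tight junction genes CLDN6 and CLDN7 fell in both settings and less with the control shRNA, with differences of 1.85 ± 0.20 and 1.80 ± 0.16. GRHL3, a factor of surface ectoderm, instead rose with the control shRNA by 1.78 and did not pass without it (1.84 ± 0.14), with 7.40, 7.38 and 7.60 in control shRNA embryoid bodies and 5.24, 5.13 and 5.35 in untransduced ones. RAB25, an epithelial GTPase, did not pass with the control shRNA (0.36) and fell without it (-1.25), a difference of 1.61 ± 0.20.

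In the whole list of surface ectoderm and epithelium, 18 of 22 genes tested were higher, against 8.13% of all genes. The other 4 did not pass (median 0.99). In untransduced cells 18 of the 22 fell with differentiation, whereas in control shRNA cells 10 fell and 5 rose. The mean level over the 22 genes was 7.91 to 7.94 on control shRNA embryoid bodies and 8.24 to 8.35 on control shRNA pluripotent cells, against 6.64 to 6.84 on untransduced embryoid bodies and 8.24 to 8.30 on untransduced pluripotent cells. Placode genes, which mark thickened ectoderm that forms sense organs, were higher in 6 of 14 and lower in 2 (median 0.28). The shares over all genes were 8.13% and 8.22%. DLX3 (1.12 ± 0.19) and DLX5 (0.98 ± 0.18), border homeobox genes, rose in both settings and more with the control shRNA, whereas EYA4, a transcriptional coactivator of the ear, rose less with it (-1.29 ± 0.32). PAX8, an early ear factor, did not pass with the control shRNA (0.16) and rose by 1.09 without it (difference -0.93 ± 0.18). At the 60th percentile filter 3 placode genes were higher and 1 lower.

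Other cadherins diverged in the same comparison. CDH9, a type II cadherin, had 8.24, 8.30 and 8.27 in control shRNA embryoid bodies and 4.45, 4.37 and 4.29 in control shRNA pluripotent cells, against 3.88, 4.05 and 3.98 in untransduced embryoid bodies and 4.60, 3.91 and 3.68 in untransduced pluripotent cells. It was above the filter in 1 group alone, and its difference was 4.0 ± 0.24 (adjusted p 8.03e-08). CDH6, a cadherin of the dorsal tube and premigratory crest, rose by 4.22 with the control shRNA and by 2.77 without it (1.46 ± 0.14), and CDH18 was also higher (1.20 ± 0.17). The mesenchymal cadherin CDH11 rose less with the control shRNA (-1.71 ± 0.14), as did CDH10 (-1.47 ± 0.14). Like CDH9, CDH18 and CDH10 were above the filter in 1 group alone. Of 12 cadherins 5 were higher and 4 lower, against 8.13% and 8.22% of all genes. CDH1 and CDH3 (0.86) were the other higher genes, and CDH20 (-1.06) and CDH2 the other lower ones.

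Differentiation lowered most pluripotency genes in both settings, in 15 of 20 tested with the control shRNA and 15 of 20 without it. Of the 23 genes listed, 1 was too dim and 2 had no probe set with 1 symbol. POU5F1 and NANOG were listed but not among those tested. The differences went both ways, with 4 higher, 3 lower and 13 that did not pass, against 8.13% and 8.22% of all genes (median 0.21). CRIPTO, the NODAL coreceptor, had 5.40, 5.72 and 5.57 in control shRNA embryoid bodies and 10.67, 10.85 and 10.56 in control shRNA pluripotent cells, against 3.41, 2.53 and 3.32 in untransduced embryoid bodies and 11.01, 11.05 and 10.93 in untransduced pluripotent cells. It fell by 5.13 and by 7.91 (2.78 ± 0.25), and both groups of embryoid bodies lay at or near the dim end. PODXL, a sialomucin of stem cells, had 10.14, 10.13 and 10.11 in control shRNA embryoid bodies against 7.51, 7.37 and 7.44 in untransduced ones (2.51 ± 0.12), and ZFP42, a zinc finger gene of naive and primed cells, was higher as well (1.60 ± 0.18). POLR3G, an RNA polymerase subunit of stem cells, was the other higher gene (1.10). GDF3, a NODAL-related ligand, fell more with the control shRNA (-1.08 ± 0.25), and USP44 (-0.82) and SOX2 were the other lower genes. For GDF3 the embryoid bodies overlapped at the dim end. Its gap lay in pluripotent cells, with means of 6.81 with the control shRNA and 5.65 without it. The mean level over the 20 genes was 8.05 to 8.11 on control shRNA embryoid bodies and 9.38 to 9.46 on control shRNA pluripotent cells, against 7.58 to 7.63 on untransduced embryoid bodies and 9.23 to 9.37 on untransduced pluripotent cells. The part of these residual levels in the other differences was not tested.

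The microRNA genes MIR302A and MIR302B belong to the miR-302 cluster, which pluripotent cells transcribe as 1 unit, and both fell less with the control shRNA. Mature sequences from RefSeq (GRCh38.p14) are shown because the 2 tested of 8 listed pluripotency microRNA genes share their seed, bases 2 to 8, given in capitals, and miR-21 does not.
hsa-miR-302a-3p: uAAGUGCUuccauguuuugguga
hsa-miR-302b-3p: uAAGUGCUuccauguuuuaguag
hsa-miR-21-5p: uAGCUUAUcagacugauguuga
The miR-302 sequences lie at chr4:112648186-112648208 and chr4:112648489-112648511 on the minus strand, and miR-21 at chr17:59841273-59841294 on the plus strand. Array probe sets read transcripts of the gene, so the levels below are not those of the mature RNAs.

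MIR302A had 9.09, 8.41 and 8.72 in control shRNA embryoid bodies and 9.64, 9.89 and 9.64 in control shRNA pluripotent cells, against 4.17, 5.48 and 4.80 in untransduced embryoid bodies and 9.86, 9.18 and 8.91 in untransduced pluripotent cells. MIR302B had 6.67, 6.35 and 6.55 in control shRNA embryoid bodies and 7.08, 7.43 and 7.26 in control shRNA pluripotent cells, against 4.03, 4.35 and 3.96 in untransduced embryoid bodies and 7.94, 6.89 and 7.04 in untransduced pluripotent cells. Both fell in both settings, and only the untransduced embryoid bodies reached the dim end. The difference was 3.51 ± 0.40 for MIR302A (adjusted p 3.81e-05) and 2.44 ± 0.30 for MIR302B (adjusted p 6.73e-05). MIR21, a microRNA gene that rises in many epithelial and stressed cells, had 7.63, 7.73 and 7.69 in control shRNA embryoid bodies and 6.76, 7.0 and 7.02 in control shRNA pluripotent cells, against 5.47, 5.44 and 5.03 in untransduced embryoid bodies and 6.95, 7.55 and 8.05 in untransduced pluripotent cells. It rose with the control shRNA and fell without it (2.96 ± 0.29, adjusted p 7.78e-06).

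Retinoic acid genes were higher in 6 of 12 tested and lower in 1, against 8.13% and 8.22% of all genes (median 0.62). The count of lower genes is near its share. Retinoic acid is a vitamin A derivative that patterns the posterior neural plate, and CYP26A1 is the enzyme that degrades it and its best known direct target. CYP26A1 had 7.22, 7.14 and 7.04 in control shRNA embryoid bodies and 5.47, 5.13 and 5.0 in control shRNA pluripotent cells, against 4.66, 4.63 and 4.76 in untransduced embryoid bodies and 5.39, 5.37 and 5.49 in untransduced pluripotent cells. It rose by 1.93 ± 0.11 with the control shRNA and fell by 0.73 ± 0.11 without it, a difference of 2.66 ± 0.15 (adjusted p 6.78e-08). The untransduced means, 4.69 in embryoid bodies and 5.42 in pluripotent cells, lay at the dim end of the scale.

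RefSeq (GRCh38.p14) holds 2 promoter windows for CYP26A1. The 250 bases before the start site at chr10:93073643-93073892, plus strand, are shown because they hold a retinoic acid response element, in capitals: the letters AGTTCA, 5 free bases and AGTTCA again, read on the minus strand, 90 to 74 bases before the start.
CYP26A1: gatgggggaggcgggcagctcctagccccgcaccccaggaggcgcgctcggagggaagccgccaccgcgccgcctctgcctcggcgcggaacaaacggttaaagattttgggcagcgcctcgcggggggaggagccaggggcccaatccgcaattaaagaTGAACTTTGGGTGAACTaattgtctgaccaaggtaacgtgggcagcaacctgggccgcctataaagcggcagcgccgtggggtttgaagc
Searched on both strands, this motif was present in 3 of the 35116 promoter windows of that length, or 0.00854%, and the other CYP26A1 window, chr10:93073225-93073474, does not hold these letters. The match describes the sequence and is no measurement of binding.

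The other members of the pathway did not move as one. CRABP2, which carries retinoic acid to its receptor, rose by 2.85 with the control shRNA and by 1.02 without it (1.83 ± 0.18), with part of the gap in pluripotent cells, at 8.15, 8.11 and 8.37 with the control shRNA and 8.92, 9.24 and 9.50 without it. STRA6, a retinol transporter, rose in both settings and more with the control shRNA (0.90 ± 0.14). DHRS3, which reduces retinal, fell less (1.46 ± 0.23), and so did RARRES2, the chemoattractant chemerin (2.38 ± 0.23). RARG, a retinoic acid receptor, did not pass with the control shRNA and fell by 1.29 without it (1.23 ± 0.16). The lower gene was ALDH1A2, which makes retinoic acid (-0.50), and it was above the filter in 1 group alone.

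Endoderm genes differed before differentiation as well as after it. AFP, the fetal albumin of yolk sac and liver, had 7.65, 7.11 and 7.24 in control shRNA embryoid bodies and 5.62, 5.75 and 6.23 in control shRNA pluripotent cells, against 3.31, 3.52 and 4.04 in untransduced embryoid bodies and 4.23, 4.04 and 4.28 in untransduced pluripotent cells. The control shRNA arrays stood above the untransduced arrays in both states, and the gap widened in embryoid bodies (2.02 ± 0.27, adjusted p 1.49e-04). The apolipoprotein APOA2 (1.57 ± 0.15) and the thyroxine carrier TTR (1.39 ± 0.22) showed the same order. Of 17 genes tested, 7 were higher and 2 lower in the difference, against 8.13% and 8.22% of all genes (median 0.20). Of these calls 3, APOB, SERPINA1 and CER1, were above the filter in 1 group alone. In pluripotent cells 13 of the 17 were already higher with the control shRNA than without it. FOXA1, an endoderm and floor plate factor, was lower (-0.91 ± 0.18). The other lower gene was CER1 (-0.79 ± 0.24), whose call was lost in 11 of the 20 alternatives that tested it, 8 of them leaving out 1 array. The mean level over the 17 genes was 6.29 to 6.32 on control shRNA embryoid bodies and 5.98 to 6.03 on control shRNA pluripotent cells, against 5.24 to 5.30 on untransduced embryoid bodies and 5.30 to 5.35 on untransduced pluripotent cells.

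The 4 lists of mesoderm and its derivatives gave calls at about the share of all genes, 16.4%. In the primitive streak list 2 of 13 were lower, FGF8 (-0.79 ± 0.16) and CER1, and the call of CER1 was lost without replicate 1 or 2 of either set of embryoid bodies, among other arrays. Of 10 paraxial mesoderm genes the segmentation gene HES7 passed at 0.37 ± 0.12, and its call was lost when any array was left out except replicate 1 of the control shRNA pluripotent cells. Of 17 lateral and cardiac mesoderm genes listed, 8 were too dim. The 8 tested included 2 higher genes, and both were above the filter in 1 group alone. MEF2C, a factor of muscle that crest cells also express, had 7.36, 7.29 and 7.27 in control shRNA embryoid bodies and 5.22, 4.72 and 4.79 in control shRNA pluripotent cells, against 4.66, 4.79 and 4.53 in untransduced embryoid bodies and 5.17, 5.27 and 4.70 in untransduced pluripotent cells (2.78 ± 0.21, adjusted p 8.35e-07). BMP4, a ligand, was the other (0.77 ± 0.16). The cardiac factors NKX2-5 (0.20) and GATA4 (0.20) did not pass. Of 19 endothelial and blood genes listed, 7 were too dim. Of the 12 tested, KDR, a VEGF receptor, was higher because it fell less (1.14 ± 0.22), and ERG was the other call (0.53 ± 0.12).

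Of 17 trophoblast and amnion genes listed, 7 were too dim and 2 had no probe set with 1 symbol. Of the 8 tested, 3 were higher and 1 lower, against 8.13% and 8.22% of all genes. TFAP2C, an AP-2 factor of trophoblast, germ cells and surface ectoderm, had 8.60, 8.67 and 8.74 in control shRNA embryoid bodies and 5.64, 5.69 and 5.39 in control shRNA pluripotent cells, against 5.02, 5.10 and 4.57 in untransduced embryoid bodies and 5.30, 5.35 and 5.51 in untransduced pluripotent cells. It was bright in 1 group, rose with the control shRNA and fell without it (3.58 ± 0.18, adjusted p 2.22e-08). The keratin KRT7 did not pass with the control shRNA and fell without it (1.23 ± 0.22). Its embryoid bodies overlapped (gap 0.51), and the larger gap lay in pluripotent cells, lower with the control shRNA (-0.72). CDX2, a trophectoderm factor, did not pass (0.36, adjusted p 0.0740). IGFBP3, a binding protein of insulin-like growth factors, was lower (-2.30 ± 0.15).

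Mesenchyme and matrix genes were mixed, with 3 higher, 4 lower and 17 of 24 that did not pass, against 8.13% and 8.22% of all genes. Without replicate 1 of the untransduced pluripotent cells 6 were higher. ZEB1, a repressor of CDH1, had 6.59, 6.83 and 6.92 in control shRNA embryoid bodies and 5.14, 4.93 and 5.11 in control shRNA pluripotent cells, against 8.47, 8.30 and 8.60 in untransduced embryoid bodies and 4.99, 5.02 and 5.11 in untransduced pluripotent cells. It rose in both settings and less with the control shRNA (-1.70 ± 0.15, adjusted p 3.06e-06). FN1, fibronectin, fell with the control shRNA and rose without it (-1.50 ± 0.19), and here the pluripotent cells carried the gap, at 9.91, 9.94 and 10.04 with the control shRNA and 8.43, 7.96 and 8.24 without it. PDGFRA, a receptor of crest mesenchyme and mesoderm, rose more with the control shRNA (1.48 ± 0.22), and the collagen gene COL1A2 (0.88) and the galectin gene LGALS1 (0.58) were the other higher genes.

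Neuronal genes were higher in 9 of 16 tested, against 8.13% of all genes, and the other 7 did not pass (median 0.54). GAP43, a growth cone protein, rose with the control shRNA and fell without it (2.04 ± 0.15), with 9.56, 9.50 and 9.55 in control shRNA embryoid bodies against 6.69, 6.95 and 6.76 in untransduced ones. STMN2, a tubulin regulator of growing axons, rose by 2.15 with the control shRNA and did not pass without it (1.85 ± 0.21). POU4F1, a factor of sensory neurons, which crest and placodes form, had a difference of 1.18 ± 0.14, and the neurofilament gene NEFL one of 1.04 ± 0.16. Part of the count is a smaller fall and no rise. NEFM changed by -0.73 with the control shRNA and by -1.28 without it, and SYT4 by -1.19 and -1.72. For NEFL the changes were 0.24 and -0.80, and for ONECUT1 -0.18 and -0.77.

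In the NODAL list 3 of 10 were higher and 2 lower, against 8.13% and 8.22% of all genes, with CRIPTO, the activin subunit INHBE (1.48 ± 0.33) and the activin antagonist FST (1.33 ± 0.21) higher, and GDF3 and CER1 lower. In the NOTCH list 4 of 15 were higher, led by the target HEY1 (1.02 ± 0.17) and the ligand JAG1 (0.91 ± 0.17), with the targets HEY2 (0.48) and HEYL (0.43) smaller. The call of HEY2 was lost in 15 of 21 alternatives. The count fell to 2 without any 1 of the control shRNA embryoid body arrays, replicate 1 of the untransduced embryoid bodies, or replicate 2 or 3 of the control shRNA pluripotent cells. Of 8 hedgehog genes, PTCH1, the receptor and target of the pathway (-1.27 ± 0.19), and GLI2 (-1.07 ± 0.15) were lower, GLI3 was higher (0.51 ± 0.12), and the target GLI1 did not pass (0.30, adjusted p 0.208).

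**Figure D4:**
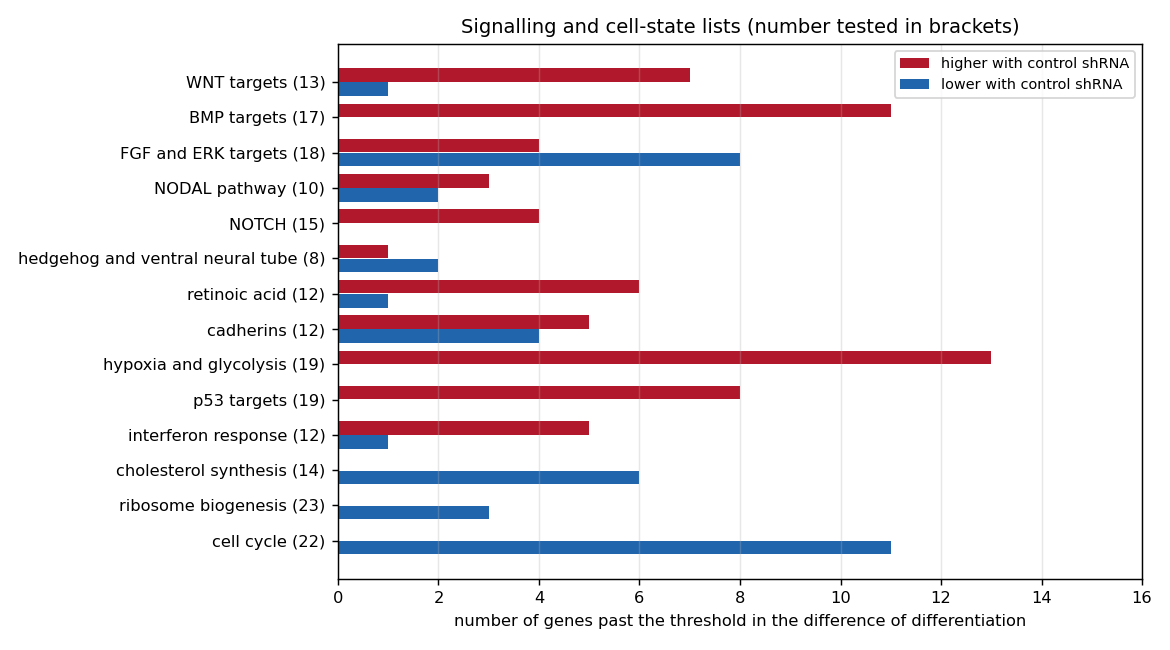
Number of genes (horizontal axis) past an adjusted p under 0.05 in the difference of differentiation, higher with control shRNA (red) or lower (blue), in 14 lists of signalling and cell-state genes (rows, with the number tested). The list of BMP targets and regulators and the hypoxia genes have 11 and 13 higher, and cell cycle genes 11 lower.

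Genes of general cell state also differed, and the part of these states in the lineage results was not tested. Hypoxia and glycolysis genes were higher in 13 of 19, against 8.13% of all genes (median 0.70). Among them were ANKRD37 (1.75 ± 0.17), the mitophagy gene BNIP3 (1.54 ± 0.18) and NDRG1 (1.53 ± 0.20), all targets of hypoxia-inducible factors. These 3 genes rose in both settings, and NDRG1 had 8.83, 9.0 and 8.89 in control shRNA embryoid bodies against 7.07, 7.23 and 6.91 in untransduced ones. The mean level over the 19 genes was 9.56 to 9.59 on control shRNA embryoid bodies and 8.27 to 8.38 on control shRNA pluripotent cells, against 8.73 to 8.86 on untransduced embryoid bodies and 8.22 to 8.32 on untransduced pluripotent cells.

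Cell cycle genes were lower in 11 of 22, against 8.22% of all genes, and the other 11 did not pass (median -0.32). The replication helicase genes MCM7 and MCM2 fell with the control shRNA and rose without it (-0.91 ± 0.13 and -0.83 ± 0.12). MCM7 had 9.75, 9.77 and 9.75 in control shRNA embryoid bodies and 9.90, 10.13 and 10.26 in control shRNA pluripotent cells, against 9.58, 9.64 and 9.66 in untransduced embryoid bodies and 9.15, 8.99 and 9.04 in untransduced pluripotent cells, so the larger gap lay in pluripotent cells. MCM6 was lower at -0.83 ± 0.13 and PCNA, the replication clamp, at -0.65 ± 0.13.

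Targets of p53 were higher in 8 of 19, against 8.13% of all genes, and the other 11 did not pass (median 0.38). PMAIP1, which encodes the death promoter NOXA, had 7.04, 6.69 and 6.86 in control shRNA embryoid bodies and 8.58, 8.65 and 8.64 in control shRNA pluripotent cells, against 3.74, 4.75 and 4.65 in untransduced embryoid bodies and 8.78, 9.14 and 9.16 in untransduced pluripotent cells. It fell in both settings and less with the control shRNA (2.88 ± 0.29). GDF15 (1.39 ± 0.20) and the cell cycle inhibitor CDKN1A (1.13 ± 0.21) rose with the control shRNA and did not pass without it. In pluripotent cells 10 of the 19 were lower with the control shRNA.

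Of 22 interferon response genes listed, which sense viral nucleic acids among other triggers, 9 were too dim. Of the 12 tested, 5 were higher and 1 lower, against 8.13% and 8.22% of all genes. IFITM1 (1.02 ± 0.14), BST2 (0.92 ± 0.15) and ISG15 (0.77 ± 0.16) were higher, and MX2 (0.38) lost its call in 10 of the 20 alternatives that tested it. For BST2 the embryoid bodies overlapped and the gap lay in pluripotent cells, at 7.34, 7.29 and 7.46 with the control shRNA and 7.99, 8.40 and 8.34 without it. In pluripotent cells 5 of the 12 were lower with the control shRNA. The sensor IFIH1 (0.69 ± 0.16) was above the filter in untransduced pluripotent cells alone, and IFIT1 was the lower gene (-0.71 ± 0.18).

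Cholesterol synthesis genes were lower in 6 of 14, against 8.22% of all genes (median -0.36). In pluripotent cells 8 of the 14 were higher with the control shRNA and 1 was lower. SQLE (-0.81 ± 0.14) and LSS (-0.66 ± 0.17), successive enzymes of the pathway, fell in both settings and more with the control shRNA, and IDI1 fell with it and did not pass without it (-0.75 ± 0.12). Ribosome biogenesis genes fell with differentiation in both settings, 18 of 23 with the control shRNA and 15 of 23 without it. In pluripotent cells 12 of the 23 were higher with the control shRNA and 1 was lower. In the difference 3 of 23 were lower, against 8.22% of all genes. These were LYAR (-0.90 ± 0.15), RRP12 (-0.60 ± 0.11) and NOP16 (-0.56 ± 0.15). Without replicate 1 of the untransduced pluripotent cells 6 were lower. The call of NOP16 was lost without replicate 2 of the control shRNA embryoid bodies, replicate 3 of the untransduced embryoid bodies, replicate 3 of the control shRNA pluripotent cells or replicate 2 of the untransduced ones.

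Several of the 15 most positive genes belong to none of these lists. NRP2, a semaphorin receptor that guides crest streams, had 9.09, 9.10 and 9.08 in control shRNA embryoid bodies and 7.28, 7.29 and 7.39 in control shRNA pluripotent cells, against 5.18, 6.21 and 5.91 in untransduced embryoid bodies and 7.94, 7.27 and 7.44 in untransduced pluripotent cells. The protocadherin gene PCDH10 had 8.87, 9.05 and 9.0 in control shRNA embryoid bodies and 6.52, 6.42 and 6.34 in control shRNA pluripotent cells, against 5.76, 6.14 and 5.75 in untransduced embryoid bodies and 6.25, 6.63 and 6.51 in untransduced pluripotent cells. Both rose with the control shRNA and fell without it (3.55 ± 0.29 and 3.13 ± 0.17). S100A10, the partner of annexin A2, fell in both settings, with changes of -0.75 with the control shRNA and -3.85 without it (3.10 ± 0.20). MT1G, a metallothionein of a family of near-identical genes whose signals may mix, spread from 8.36 to 10.19 over the untransduced pluripotent arrays and had a difference of 3.04 ± 0.44 (adjusted p 2.96e-04).

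All of the 15 most negative genes rose with differentiation in untransduced cells, by 1.61 to 4.41. The malic enzyme gene ME3 had 6.83, 6.84 and 6.98 in control shRNA embryoid bodies and 6.58, 6.14 and 6.15 in control shRNA pluripotent cells, against 9.26, 9.40 and 9.34 in untransduced embryoid bodies and 5.68, 5.35 and 5.82 in untransduced pluripotent cells (-3.13 ± 0.19, adjusted p 8.24e-08). Untransduced embryoid bodies were also the highest group for CAPN6, a calpain without protease activity (-2.89 ± 0.14), PRSS23, a secreted protease (-2.74 ± 0.25), F2RL2, a thrombin receptor (-2.57 ± 0.25), CA2, a carbonic anhydrase (-2.49 ± 0.13), DIPK1C (-2.45 ± 0.18), the calcium sensor NCALD (-2.40 ± 0.12) and HPSE2, a heparanase relative (-2.34 ± 0.15). In all of these every untransduced embryoid body array lay above the 9 other arrays. DIPK1C was above the filter in untransduced embryoid bodies alone, so it was tested only because of the group where it was high. PARM1 and MPPED2, a metallophosphoesterase, fell with the control shRNA and rose without it (-2.96 ± 0.19 and -2.51 ± 0.26).

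**Figure D5:**
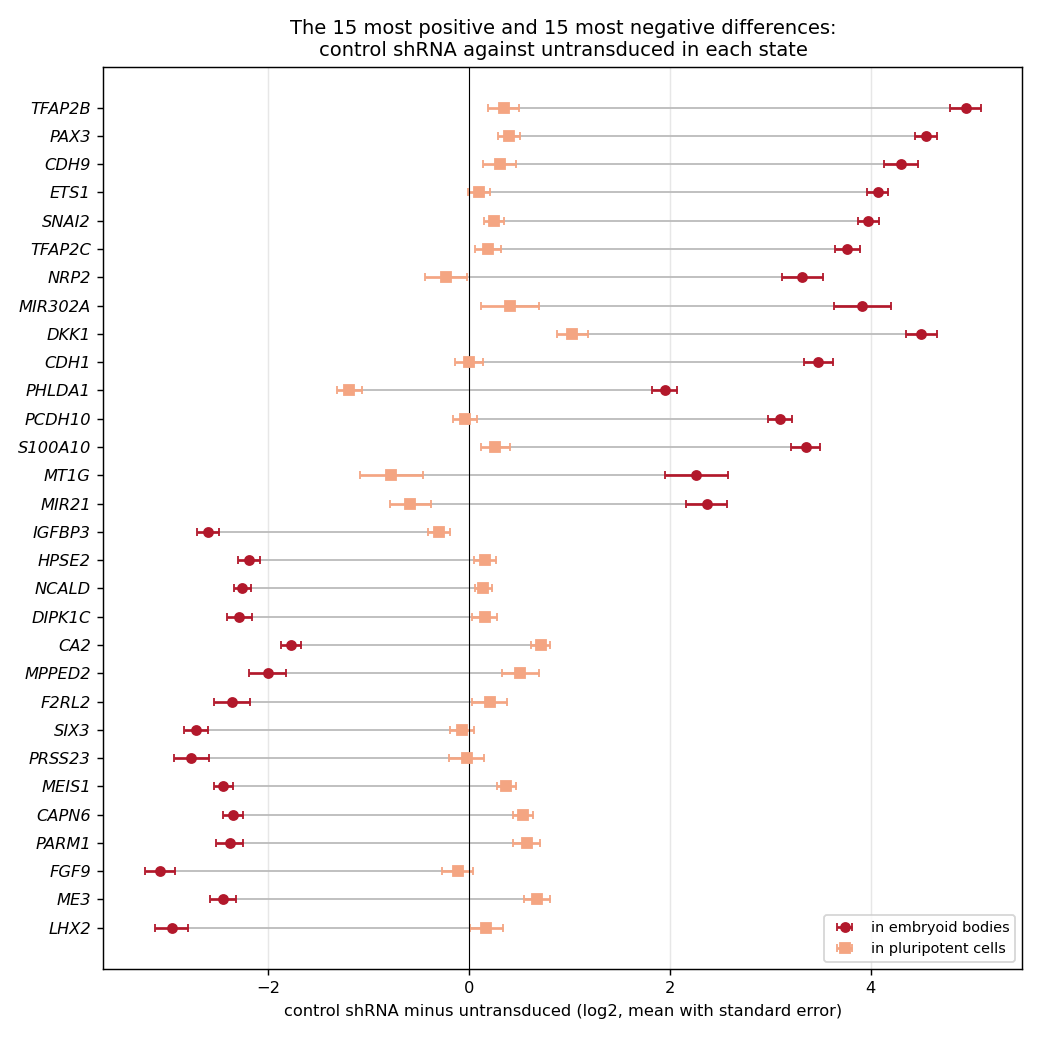
Control shRNA minus untransduced (log2, horizontal axis; mean with standard error) in embryoid bodies (dark circles) and in pluripotent cells (light squares), for the 15 most positive and 15 most negative differences of differentiation (rows). The embryoid body value is the farther from 0 for every gene shown, and the largest gaps in pluripotent cells belong to PHLDA1 and DKK1.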

How the data were processed

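Total RNA of H1 cells was hybridised to Affymetrix Human Gene 1.0 ST arrays. The deposited log2 values are GCRMA summaries per probe set, per the submitters' processing notes, which name no version. The log base was read from the range of the values, and whether all arrays were normalized together is not given in the sources used here. Of 33297 probe sets, 19460 had 1 gene symbol in the platform annotation, 1754 had several and 12083 had none. Only those with 1 symbol were named, with symbols updated through RefSeq. For a gene with several probe sets, the one with the highest mean was used. Genes above the array's 40th percentile on at least 3 arrays were tested, which left 14016. Of these, 157 were above the filter in 1 group alone, and 93 of the 157 were called in the difference, 44 higher and 49 lower. The number of arrays limits the precision.

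The 12 arrays were fitted with limma 3.58.1 in R 4.3.3 (lmFit and eBayes, 1 mean per group, no covariate), with Benjamini-Hochberg adjustment over all genes tested. The fit had 8 residual degrees of freedom and a prior of 5.89, and was tested on simulated data. Groups were taken from the sample titles. The named genes were the 15 largest positive and negative differences, 5 markers and up to 6 members of each of 32 lists with the largest absolute difference. KBTBD8 is given for its level only. SOX10, SOX5, ID2, ID3, NEFM, SYT4, ONECUT1 and members beyond the 6 that complete a small count were picked after their values were seen. The markers and lists were chosen with earlier results of these data known. Alternatives changed the filter, the scaling, the probe set rule, the prior, the replicate block and the arrays in the fit.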

Additional observations from a re-analysis of the deposited data

Results flagged for a closer look

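In 191 genes called in the difference of differentiation, the 2 settings moved in opposite directions and both movements passed the threshold, 116 of them with a positive difference and 75 with a negative one. The test of the difference itself is the limma contrast of the report.

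Among the named genes that rose with the control shRNA and fell without it, the difference was 3.974 for ETS1, 3.583 for TFAP2C, 3.551 for NRP2, 3.133 for PCDH10, 2.959 for MIR21, 2.779 for MEF2C, 2.664 for CYP26A1 and 2.121 for FOXD3. It was 2.037 for GAP43, 2.024 for AFP, 1.851 for APCDD1, 1.569 for APOA2, 1.371 for OLIG3, 1.288 for EGLN3, which encodes an oxygen sensor of the hypoxia response, 1.247 for IRX2, 1.018 for IFITM1 and 0.9325 for the apolipoprotein gene APOA1. For AFP, OLIG3, MEF2C, APOA2, TFAP2C and CYP26A1 both untransduced means lay under or within 5.26 to 5.54, the dim end of the scale. A low level there is only a bound, so their fall without the shRNA is uncertain.

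Among those that fell with the control shRNA and rose without it, the difference was -0.8316 for MCM2, -0.9068 for MCM7, -1.504 for FN1, -1.792 for ETV5, -1.875 for IL17RD, -2.303 for IGFBP3, -2.514 for MPPED2 and -2.958 for PARM1.

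Outside the genes of the report, 75 of 6748 probe sets with several symbols or none also passed in the difference, 41 higher and 34 lower.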

How the results depend on the processing

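Fitting all 18 arrays moved 4 counts, to 411 higher and 341 lower in the difference of differentiation, 3807 genes between settings in embryoid bodies and 1700 in pluripotent cells. Under the other alternatives these counts stayed within 1.5 times the reported ones. Leaving out each array in turn gave 913 to 1238 higher and 849 to 1543 lower genes in the difference, 5885 to 7069 genes changed with differentiation in control shRNA cells, 6516 to 7433 in untransduced cells, 4775 to 6633 between settings in embryoid bodies and 2880 to 3934 in pluripotent cells. With the replicate number as a block the difference had 1059 higher and 1031 lower genes. Of 18 pairs of same-numbered arrays, 3 correlated over 0.1 in their deviations from the group means (range -0.374 to 0.203). With 3 arrays per group these correlations cannot decide whether the numbers pair the arrays. Of 155 named genes past the threshold, 75 stayed past it in all 21 alternatives and 77 lost it in at least 1, each of them in the fit of all 18 arrays. The other 3, CDH18, FOXD3 and OLIG3, stayed past it in the 20 alternatives that tested them. The 60th percentile filter left 20 of the 155 untested. CER1, ELAVL4, HES7, HEY2, MX2 and NOP16 also lost it under other alternatives. No difference reversed. The dim end of the array scale limits genes near the filter, where a low level is only a bound.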

Other observations

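The cells with the shRNA against KBTBD8 give a further set of values for the 5 markers. Here replicate 2 of the embryoid bodies correlated best with pluripotent control shRNA cells (0.984) and replicate 2 of the pluripotent cells with control shRNA embryoid bodies (0.983), against their labels. SNAI2 had 8.53, 6.34 and 8.88 in the arrays labelled embryoid bodies with KBTBD8 shRNA and 6.71, 8.72 and 6.74 in those labelled pluripotent. PAX3 had 7.34, 4.56 and 7.58 in the arrays labelled embryoid bodies and 4.39, 7.36 and 4.49 in those labelled pluripotent. For both genes replicate 2 lay with the other state. CDH1 had 10.53, 10.26 and 10.58 in the arrays labelled embryoid bodies and 10.30, 10.51 and 10.29 in those labelled pluripotent, close together in both states.

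Without both arrays numbered 2, the difference of differentiation between KBTBD8 shRNA and untransduced cells was 1.30 for SNAI2, 2.63 for PAX3, 0.80 for FOXD3, 4.24 for CDH1 and 3.08 for CYP26A1. With the control shRNA it was 3.73 for SNAI2, 4.15 for PAX3, 2.12 for FOXD3, 3.48 for CDH1 and 2.66 for CYP26A1. Both comparisons use the same untransduced arrays. With the KBTBD8 shRNA 1324 genes were higher and 1745 lower of 14016.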
